A study of Saccharomyces cerevisiae with 64 samples.

Results

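Entry into meiosis in budding yeast is governed by a small set of regulators, and 8 of their genes were followed here: IME1, IME2, UME6, IME4, RIM4, RIM11, RIM15 and RME1. They were chosen by name and function, out of 6002 protein-coding genes on the nuclear chromosomes. With gene positions from the R64 reference, a library was taken to occupy a gene if any peak was centred on the coding sequence or on the 500 bp before its start. All 8 were found in the reference. Of their 496 combinations of gene and library, 134 were occupied. Single libraries occupied between 0.5% and 34% of all genes. IME4 had no peak in any library and RME1 had 1, so the account below rests on the other 6 genes.

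The study mapped Spp1 and Bre2 by chromatin immunoprecipitation and sequencing (ChIP-seq). Both are subunits of Set1C, the complex that methylates lysine 4 of histone H3. Peak lists of 62 libraries were used, and the input and the untagged strain were not analysed here. All strains were SK1 diploids, a background that sporulates efficiently, grown in YPD, then in the pre-sporulation medium SPS, then in the potassium acetate sporulation medium SPM, where time was counted in hours.

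Of the myc strains, Bre2-myc was homozygous for BRE2-13xmyc-NatMX4. PHD-deleted Spp1-myc carried spp1PHD{delta}-13xmyc-KanMX4, without the finger that binds methylated H3, and CXXC-deleted Spp1-myc carried spp1CXXC{delta}-13xmyc-NatMX4. Spp1-myc was homozygous for SPP1-13xmyc-KanMX4. These 4 strains share leu2/LEU2, HIS4/his4, trp1/trp1 and ura3/ura3, and each has 5 libraries, 1 from SPS and 1 from each of 0, 2, 4 and 6 h after transfer. Of the chromosomal H3 genes, the H3 strains are given as homozygous for hht1{delta}::HphMX, while hht2{delta}::KanMX4 is written opposite another hht1{delta}::HphMX, which leaves unclear whether both copies of HHT2 are deleted. They also carry lys2, ho::LYS2 and trp1-1. A centromeric plasmid with HHF2 and TRP1 supplies H3, as HHT2K4R in the H3K4R strain, as HHT2R2A in the H3R2A strain and as HHT2 in H3WT. H3K4R replaces the methylated lysine itself, and H3R2A alters the neighbouring arginine. Spp1 in these strains is SPP1-3xHA::KanMX4, mapped in 2 libraries each at 0, 2, 4 and 6 h. In the competition strain 1 allele is SPP1-13xmyc-KanMX4, and the other, NatMX4-pCUP1-1-yGFP-SPP1, puts GFP-tagged Spp1 under the copper-induced CUP1 promoter. It gave 8 Spp1-GFP libraries and 10 Spp1-myc libraries between 4.5 and 6.5 h, although the labels of the myc libraries give the homozygous SPP1-13xmyc genotype. Nothing in the labels says that replicates were grown apart, and p-values therefore reflect only how these libraries vary, which may be technical.

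IME1 encodes the transcription activator that switches on the early meiotic genes when nutrients and mating type allow it. Ime1 is brought to these genes by Ume6, a DNA-binding protein that represses them during growth together with the Sin3 and Rpd3 deacetylase. The kinases Rim11 and Rim15 act on this pair and on nutrient signals, Ime2 is a meiosis-specific kinase that takes the programme onward, Ime4 methylates mRNA, Rim4 binds mRNA and holds back its translation, and Rme1 represses IME1 in cells that should not enter meiosis.

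The lists held between 87 and 2119 peaks, with a median of 908.5. Lists of the competition series were the shortest, with 129 to 705 peaks for Spp1-GFP and 87 to 166 for Spp1-myc. The other strains had 642 to 2119. The lists give no read counts, so the depth behind a peak is unknown and a missing peak means only that none was called. Each peak has a score between 0.5 and 1 from the authors, which is given below as a percentile within its own list, because many peaks share the highest score.

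**Figure D1:**
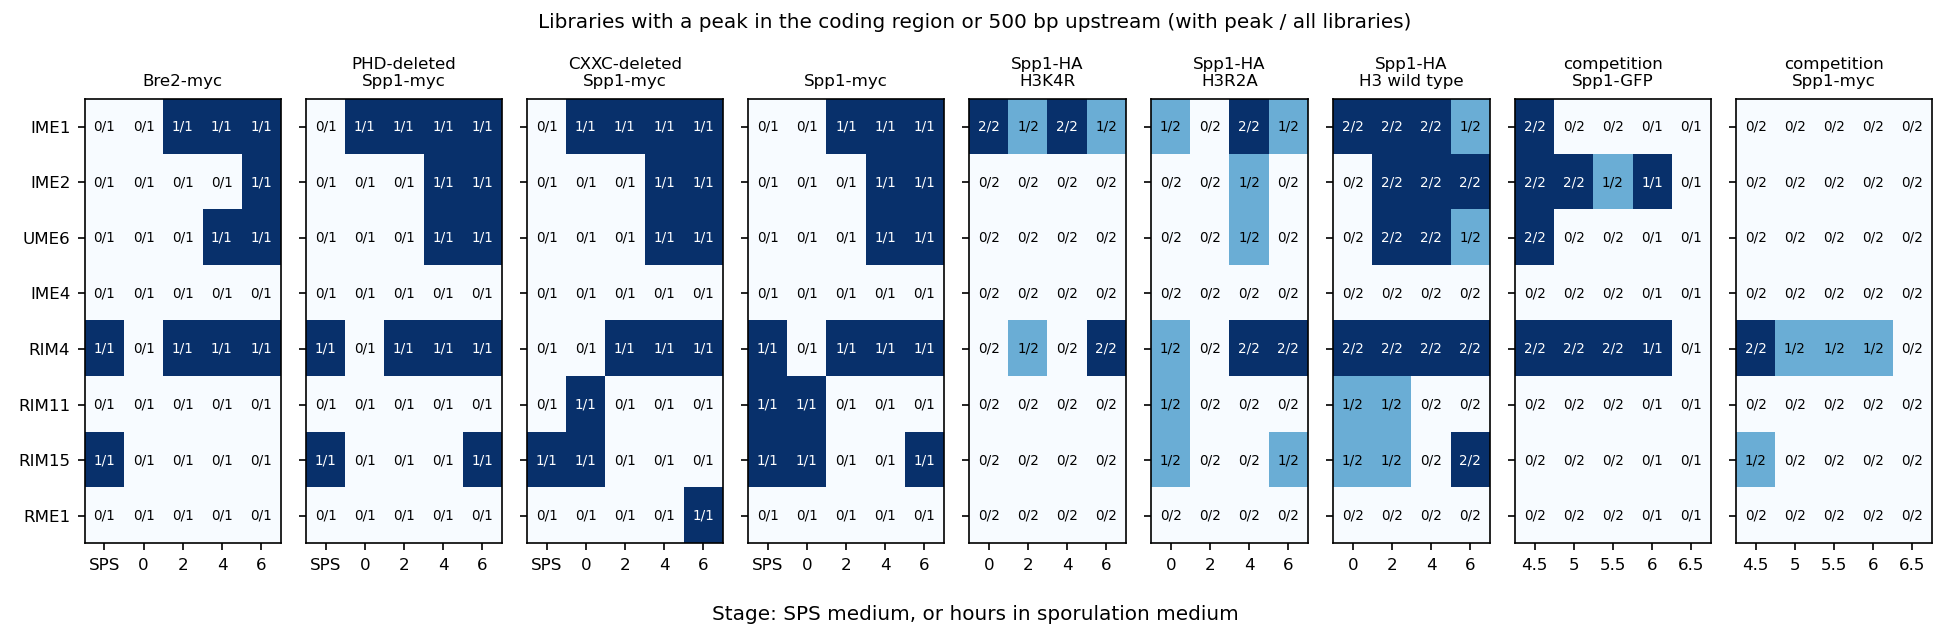
Each panel is a strain and each row a gene; columns are stages, in SPS medium or hours in SPM. A cell gives the libraries with a peak over all libraries of that group, with darker blue for a larger share. IME1, IME2, UME6 and RIM4 fill the later columns of the 4 myc strains and of H3WT, the IME2 and UME6 rows are empty in H3K4R, and the IME4 row is empty throughout.

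IME1 (YJR094C, chrX:604569-605651, minus strand, 1083 bp of coding sequence) was occupied in 33 of 62 libraries, against 6.78% of all genes occupied in at least as many. Every one of the 33 libraries had a peak near the coding start, with its midpoint between 75 and 299 bp inside the coding region (median 199 bp). These peaks had a median width of 501 bp and a median score percentile of 88.3. Together they span chrX:605100-605752, which crosses the coding start. A second, narrower peak lay 849 to 901 bp into the gene in 7 of the 33 libraries, with a median width of 151 bp and a median score percentile of 35.7.

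In the myc strains the IME1 peak followed time in SPM. Bre2-myc, PHD-deleted, CXXC-deleted and Spp1-myc all had it at 2, 4 and 6 h, in 12 of 12 libraries. None of the 4 had it in SPS. At 0 h it was called in PHD-deleted Spp1-myc, as a 151 bp peak at score percentile 35.7, and in CXXC-deleted Spp1-myc, as a 351 bp peak at percentile 49.8, but not in Bre2-myc or Spp1-myc. By 6 h the peak had percentiles of 96.9 in Bre2-myc, 89.0 in PHD-deleted, 95.4 in CXXC-deleted and 94.8 in Spp1-myc. All of these lie above both values at 0 h.

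Occupancy at 2 to 6 h (12 of 12) against SPS and 0 h (2 of 8) gave a Fisher's exact p of 0.000722 and an adjusted p of 0.0245 (Benjamini-Hochberg over 3338 genes with a peak). IME1 was among 46 genes called higher at 2 to 6 h, 1.38% of those tested, while 2.22% were called lower and 3.59% in either direction. It was the only one of the 8 regulators called in this comparison. The call was lost with strain as a stratum (exact permutation, adjusted p = 0.0541) and whenever 1 strain was left out (adjusted p between 0.0753 and 0.178, Fisher's exact test). It was also lost with an upstream window of 1000 bp (Fisher's exact test, adjusted p = 0.397), under which all 4 SPS libraries count as occupied. The call held with a window of 250 bp, with any overlap, with higher-scoring peaks and with lists of equal size (Fisher's exact test, adjusted p between 0.000996 and 0.031), and under the last of these the counts were 12 of 12 against 0 of 8. Against 0 h alone (adjusted p = 0.204) and for 4 and 6 h alone (adjusted p = 0.156) Fisher's exact test made no call either. Each strain and time has 1 library, so the spread in this test is that between strains and times.

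Upstream of IME1 lie 2653 bp without a protein-coding gene before RPL43B. This region is known to hold the many control elements of IME1, and a non-coding transcript, IRT1, crosses it in cells where Rme1 represses the gene. Peaks there fell outside the 500 bp window and were looked for after the values within it had been seen. All 4 myc strains had such peaks in SPS. The midpoint was 951 bp upstream in Bre2-myc, 924 bp in PHD-deleted and 999 bp in CXXC-deleted Spp1-myc, and Spp1-myc had a pair at 799 and 1174 bp. At 0 h none of the 4 strains had an upstream peak. At 2 h PHD-deleted and Spp1-myc had 1, at 951 and 924 bp. At 4 h all 4 strains again had peaks, between 800 and 1126 bp upstream, now beside the peak at the coding start. At 6 h only the peak at the coding start was called in the 4 strains. Outside these strains the H3R2A library at 0 h, replicate 2, had a peak farther out, at 2150 bp, and H3K4R, H3WT and both competition sets had none, so 11 of 62 libraries had an upstream peak in all.

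**Figure D2:**
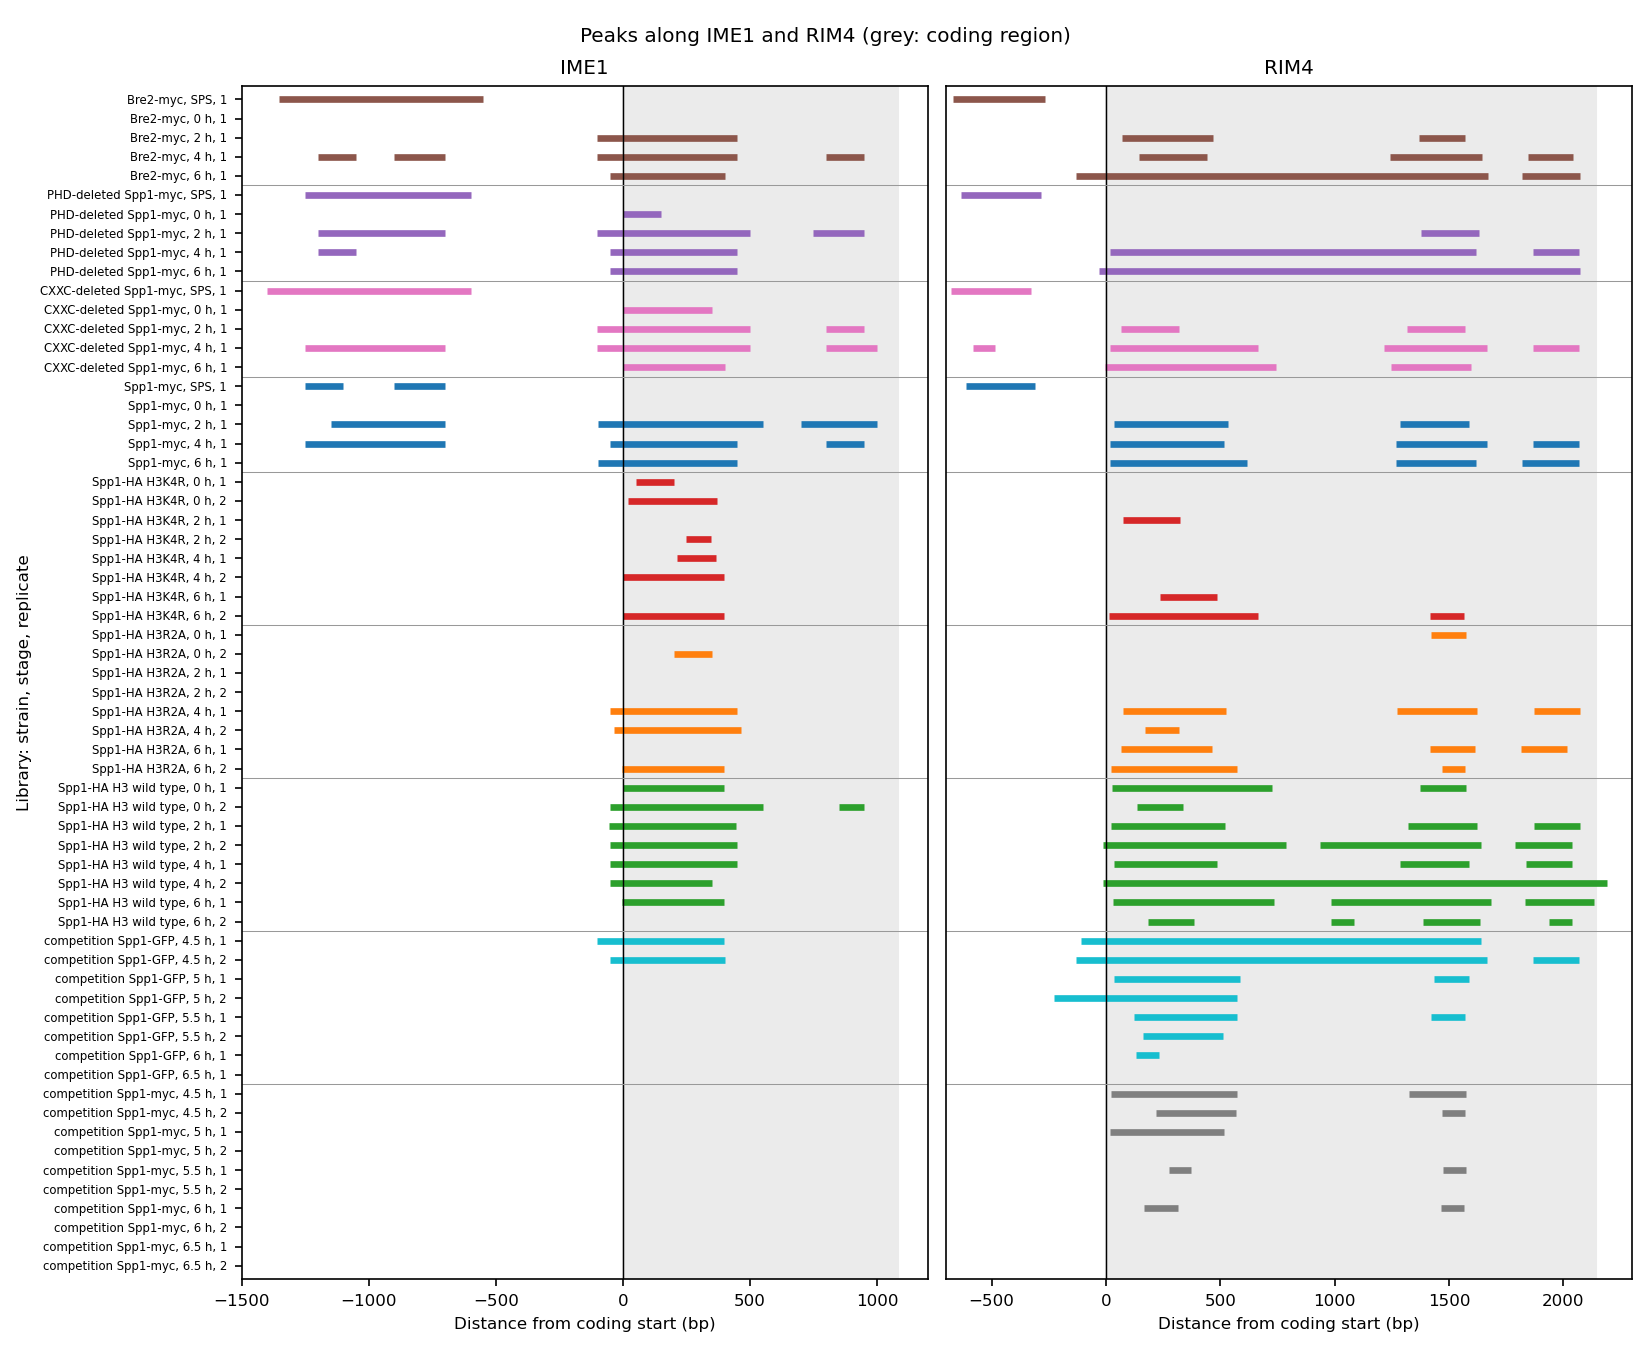
Each bar is a peak, drawn against the distance of its ends from the coding start in bp, with 1 row per library (strain, stage, replicate) and the coding region in grey. At IME1 the 4 SPS libraries have peaks only upstream, and the occupied later libraries have them at the coding start. Upstream peaks also lie beside those at 2 h in PHD-deleted and Spp1-myc and at 4 h in all 4 myc strains. At RIM4 the SPS peaks lie upstream, and the later peaks lie in the coding region, mostly at 3 recurrent positions or as a wide peak, except for 1 upstream peak in CXXC-deleted Spp1-myc at 4 h.

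Among the strains with plasmid H3, H3K4R had the IME1 peak in 6 of 8 libraries, H3R2A in 4 of 8 and H3WT in 7 of 8. H3K4R lacked it in replicate 1 at 2 h and in replicate 1 at 6 h. H3R2A had it in replicate 2 at 0 h, in both replicates at 4 h and in replicate 2 at 6 h. H3WT lacked it only in replicate 2 at 6 h. In H3K4R the peak had score percentiles between 14.5 and 86.9, against 78.7 to 94.0 in H3WT, and its width was 101 to 401 bp against 401 to 601 bp. Neither mutant was called against H3WT at IME1 (Fisher's exact test, adjusted p = 1 in both), and with 8 libraries a strain a difference of this size could not be called. In the H3 strains together, IME1 was occupied in 12 of 18 libraries at 2 to 6 h and in 5 of 6 at 0 h, with no call (Fisher's exact test, adjusted p = 0.943). Whether the H3 strains and the myc strains differ in this change with time was not tested.

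RIM4 (YHL024W, chrVIII:56649-58790, plus strand, 2142 bp) had a peak in more libraries than any other of the 8 genes, 43 of 62. At least 43 libraries were reached by 2% of all genes. Its peaks fell at recurrent positions. The first lay 172 to 393 bp into the gene in 32 libraries, the next at 1288 to 1524 bp in 26 libraries and the last at 1913 to 1986 bp in 14 libraries. In 6 libraries a peak of 1601 to 2201 bp covered most of the gene: Bre2-myc at 6 h, PHD-deleted Spp1-myc at 4 and 6 h, H3WT replicate 2 at 4 h, and both Spp1-GFP libraries at 4.5 h. In 3 of these 6 (Bre2-myc, PHD-deleted at 4 h and Spp1-GFP replicate 2) the last position was called as a peak of its own beside the wide one.

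RIM4 had peaks in the coding region in 12 of 12 myc-strain libraries at 2 to 6 h and in none at 0 h. In SPS its peak lay upstream of the gene. The midpoint was 467 bp upstream in Bre2-myc, 457 bp in PHD-deleted and 461 bp in Spp1-myc, just inside the 500 bp window, and 504 bp upstream in CXXC-deleted Spp1-myc, just outside it. CXXC-deleted Spp1-myc also had a 101 bp peak 533 bp upstream at 4 h, beside its peaks in the coding region. The share of the coding region under peaks was 28.1% at 2 h, 42.2% at 4 h and 89.8% at 6 h in Bre2-myc, and 11.7%, 84.1% and 96.8% at the same times in PHD-deleted Spp1-myc. It was 23.4%, 60.8% and 51.2% in CXXC-deleted Spp1-myc, and 37.4%, 51.5% and 56.2% in Spp1-myc. Among 2, 4 and 6 h, the share was lowest at 2 h in all 4 strains.

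Since the 3 SPS peaks within the window count as occupancy, RIM4 stood at 12 of 12 libraries at 2 to 6 h against 3 of 8 in SPS and at 0 h (Fisher's exact test, adjusted p = 0.0635), short of the threshold of 0.05. With an upstream window of 250 bp, which leaves the SPS peaks out, the counts were 12 of 12 against 0 of 8 and RIM4 was called (adjusted p = 0.00129, Fisher's exact test). Against 0 h alone it was called as well (adjusted p = 0.00718, Fisher's exact test). Under that choice 448 genes were called, against 120 with SPS included, so a call there is less rare.

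H3K4R had a RIM4 peak in 3 of 8 libraries, H3R2A in 5 of 8 and H3WT in 8 of 8. In H3K4R peaks covered 11.7% of the coding region in replicate 1 at 2 h, 11.7% in replicate 1 at 6 h and 37.4% in replicate 2 at 6 h. In H3R2A the occupied libraries were replicate 1 at 0 h (7.05%), replicates 1 and 2 at 4 h (46.8% and 7.05%) and replicates 1 and 2 at 6 h (37.5% and 30.4%). In H3WT replicate 1 the covered share was 42.1% at 0 h, 46.8% at 2 h, 44.5% at 4 h and 79.5% at 6 h, and in replicate 2 it was 9.38%, 81.3%, 100% and 30.5%. H3WT replicates thus differed among themselves by more than 2-fold at 3 of the 4 times. The count in H3K4R against H3WT had an adjusted p of 0.606 by Fisher's exact test, and 2.42% of genes tested fell at least as far. For H3R2A the adjusted p was 1 (Fisher's exact test) and 14.7% of genes fell at least as far.

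IME2 (YJL106W, chrX:221390-223327, plus strand, 1938 bp) was occupied in 20 libraries. In 19 of them the peak lay 47 to 310 bp into the gene (median 188 bp, median width 451 bp). The exception was Spp1-GFP replicate 1 at 5.5 h, with a 201 bp peak at 610 bp. Of the myc strains, Bre2-myc had the peak at 6 h only, and PHD-deleted, CXXC-deleted and Spp1-myc had it at 4 and 6 h. None had it in SPS, at 0 h or at 2 h. H3WT had it in all 6 libraries at 2, 4 and 6 h and in neither at 0 h, so it was first called at 2 h there and at 4 or 6 h in the myc strains. Whether this difference in time exceeds the spread between cultures was not tested. Both H3WT libraries at 2 h and replicate 1 at 4 h had a second peak at 837 to 860 bp, which no other strain had.

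UME6 (YDR207C, chrIV:865012-867522, minus strand, 2511 bp) was occupied in 16 libraries, each with a peak 247 to 397 bp into the gene (median 313 bp, median width 426 bp). Bre2-myc, PHD-deleted, CXXC-deleted and Spp1-myc had it at 4 h and at 6 h, and none of them in SPS, at 0 h or at 2 h. H3WT had it in both libraries at 2 h, both at 4 h and replicate 1 at 6 h. Peaks toward the end of UME6, 1972 to 2297 bp in, were called in 3 libraries: H3R2A replicate 1 at 4 h, H3WT replicate 2 at 4 h and H3WT replicate 1 at 6 h. Peaks in the coding region of MSS4, the next gene upstream, fell outside the 500 bp window; a window of 1000 bp takes many of them in and raises the count for UME6 to 29 libraries.

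Few genes had the timing of UME6, a pattern taken from its own values after they were seen. The shares below therefore describe the pattern only and do not show that UME6 is unusual. In all 4 myc strains, 18 genes (0.3%) were occupied at 4 and 6 h and free of peaks in SPS and at 0 h. Only 4 genes (0.0666%) were free of peaks at 2 h as well: UME6, the recombinase gene DMC1, HOP1, which encodes a protein of the meiotic chromosome axis, and the meiotic gene HED1. HED1 was occupied in exactly the 16 libraries in which UME6 was. This likeness, the libraries shared divided by the libraries with either gene (Jaccard index), was 1 for HED1 and 0.889 for HOP1 and FKS3. The genes most like IME2 were MEK1 (0.85), a meiotic checkpoint kinase gene, MMS1 (0.8) and DMC1 (0.773). IME2 and UME6 shared 15 of 21 libraries (0.714). The 62 libraries share strains, times and list lengths, so these indices are descriptions only.

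The test of 2 to 6 h against SPS and 0 h gave no call for IME2 or UME6. UME6 was at 8 of 12 libraries against 0 of 8 (adjusted p by Fisher's exact test = 0.0713) and IME2 at 7 of 12 against 0 of 8 (adjusted p by Fisher's exact test = 0.105). Restricted to 4 and 6 h, a choice made after the values were seen, UME6 was at 8 of 8 against 0 of 8 and passed (Fisher's exact test, adjusted p = 0.0123). These counts are the pattern already read from UME6 itself, and 18 genes (0.3%) had the same counts. The pass therefore does not show that UME6 is unusual.

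**Figure D3:**
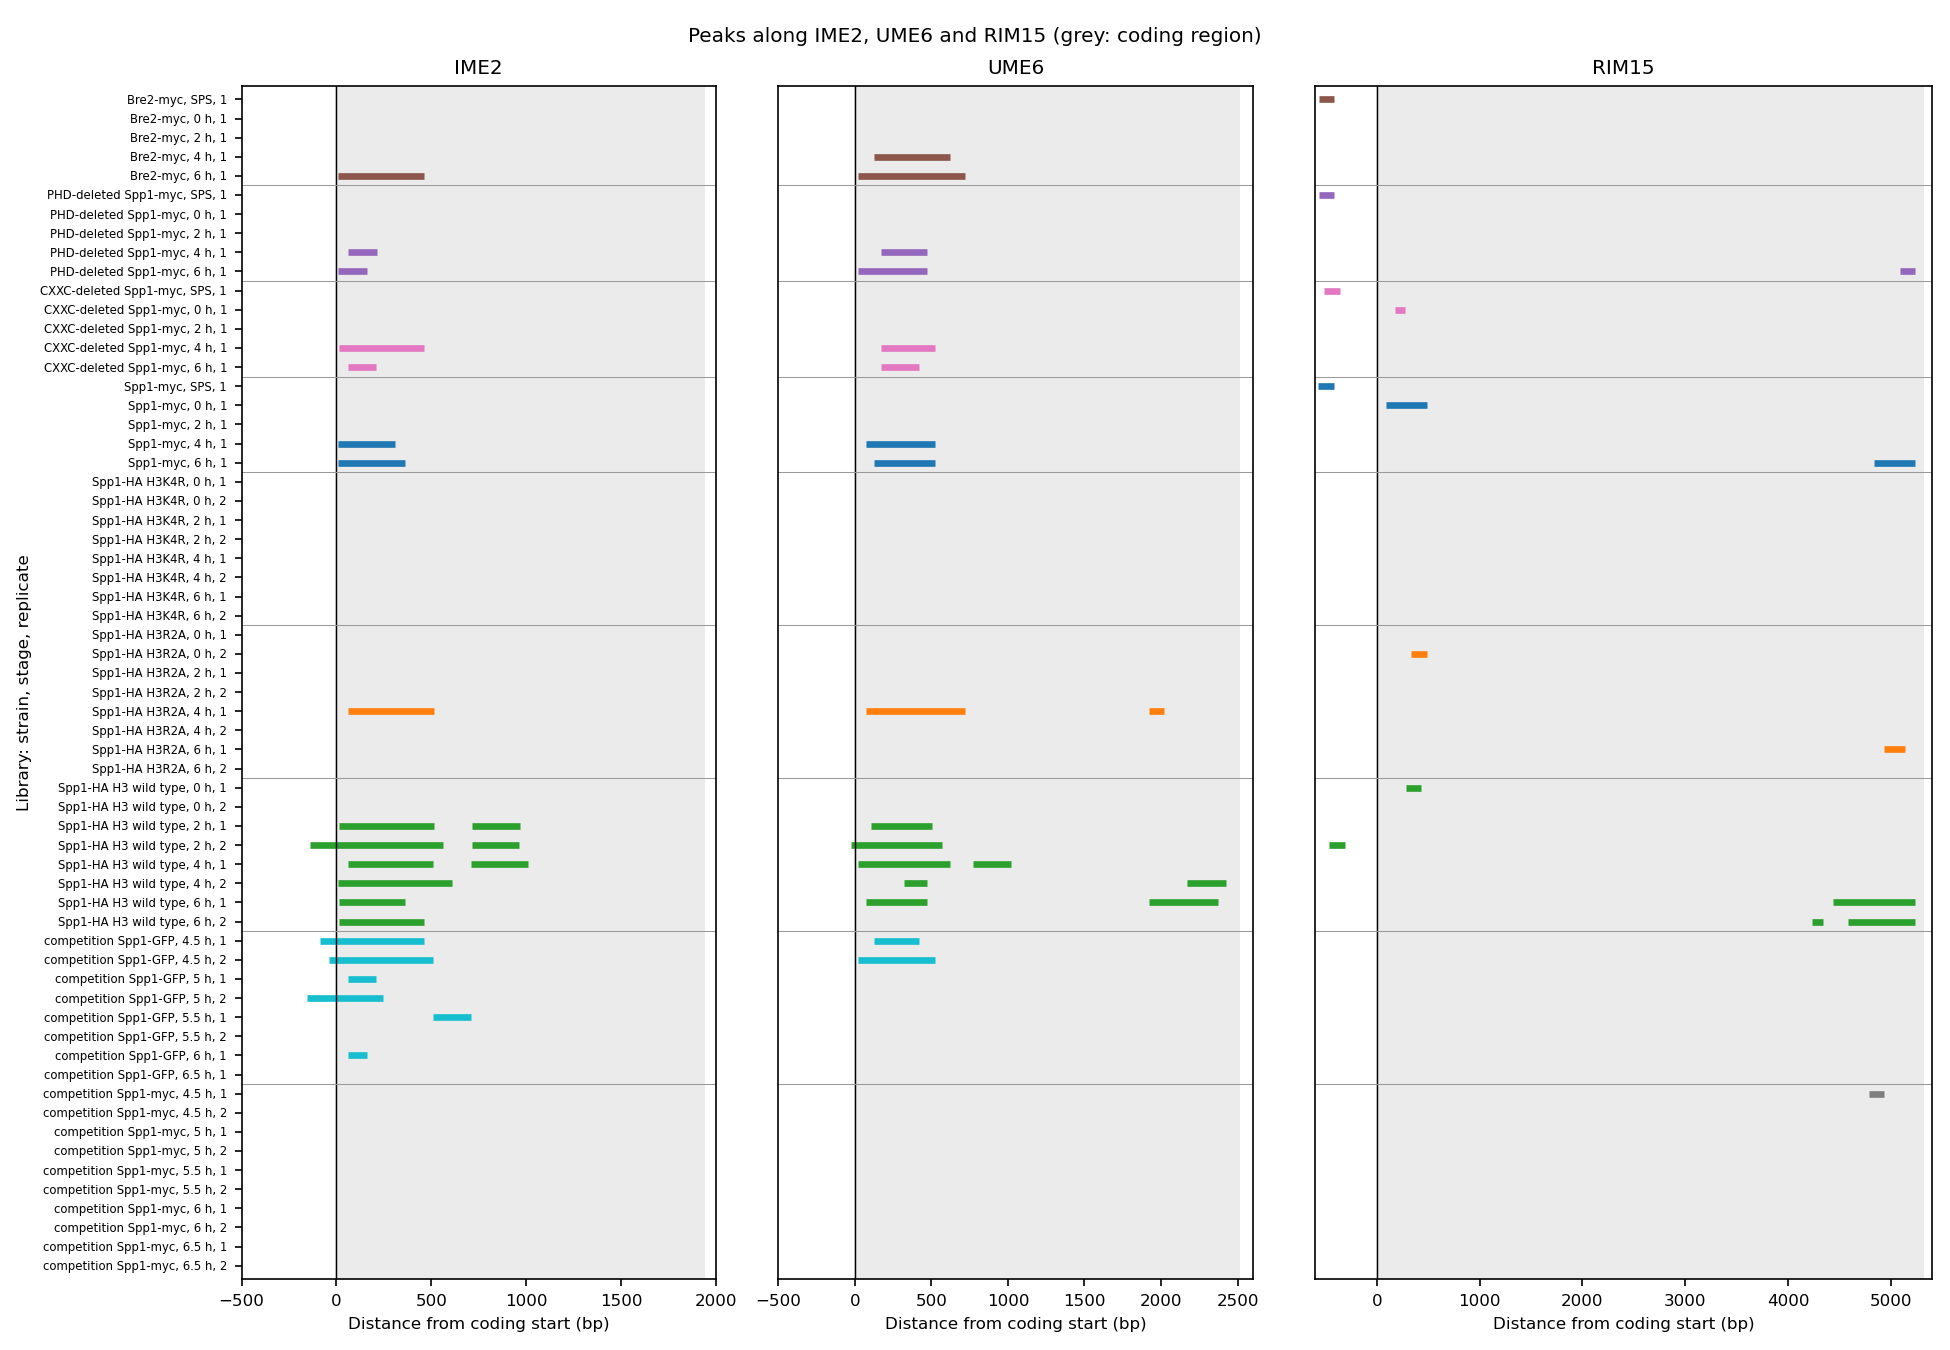
Peaks along IME2, UME6 and RIM15, drawn as bars against distance from the coding start in bp, with 1 row per library and the coding region in grey. IME2 and UME6 have peaks near the start from 2 h in H3WT and from 4 or 6 h in the myc strains, and none in H3K4R. RIM15 peaks lie upstream in SPS, near the start at 0 h and near the end at 6 h. In addition, 1 H3WT library has an upstream peak at 2 h, and 1 competition Spp1-myc library has a peak near the end at 4.5 h.

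In the histone mutants IME2 and UME6 were almost without peaks. IME2 was occupied in 0 of 8 H3K4R libraries, 1 of 8 H3R2A libraries and 6 of 8 H3WT libraries. UME6 was occupied in 0 of 8, 1 of 8 and 5 of 8. For both genes the 1 occupied H3R2A library was the same, replicate 1 at 4 h, where IME2 had a 451 bp peak at score percentile 80.3 and UME6 a 651 bp peak at percentile 78.0. For IME2 in H3K4R against H3WT the exact Fisher p was 0.00699 and the adjusted p 0.462, and 20 of 3382 genes (0.591%) fell at least as far. UME6 had an adjusted p of 0.606 (Fisher's exact test), with 2.42% of genes at least as far. For H3R2A the adjusted p was 1 for both (Fisher's exact test). Leaving out the H3R2A library at 4 h, replicate 1, both stood at 0 libraries, with adjusted p of 0.453 for IME2 and 0.578 for UME6 (Fisher's exact test).

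The kinase genes had few peaks in any of these strains. RIM15 was occupied in 0 of 8 H3K4R, 2 of 8 H3R2A and 4 of 8 H3WT libraries, and RIM11 in 0, 1 and 2 of 8 (adjusted p = 1 for each mutant against H3WT, Fisher's exact test). For RIM15 in H3K4R, 4.91% of the genes tested were at least as far below H3WT.

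No gene was called in either histone comparison by Fisher's exact test after adjustment (0% of 3382 genes for H3K4R and 0% of 3183 for H3R2A, with 197 and 87 genes at an unadjusted p under 0.05). The exact permutation test within time gave 0 calls in both as well. Its p cannot go below 0.00154 here, so a call needed many genes at that value, and its 0 calls add little. The 6 regulators with any peak in these strains were all occupied in fewer libraries than in H3WT. Over all genes, 1380 of 3382 were in fewer H3K4R than H3WT libraries, and 1805 of 3183 in fewer H3R2A than H3WT libraries. The median difference of the 6 regulators was -56.2 percentage points in H3K4R, against 0 over all genes. In H3R2A it was -37.5 points, against -12.5 over all genes. IME2, UME6, RIM11 and RIM15 had no peak in H3K4R and entered that comparison through H3WT alone. They could not be higher there, and the median of -56.2 rests in part on them. RIM4 was in all 8 H3WT libraries and could not be higher in either mutant. In H3K4R only IME1 could thus have gone either way, so the count of direction there is no result. Both comparisons use the same 8 H3WT libraries. Lists held a median of 1285.5 peaks in H3K4R, 915 in H3R2A and 1391.5 in H3WT, so lists were also compared at equal size. There IME1, IME2, UME6, RIM4 and RIM15 were again in fewer libraries of both mutants than of H3WT, RIM11 showed a difference of 0 points, and no gene was called (Fisher's exact test). The difference of IME1 in H3K4R was -50 percentage points at equal size and -12.5 with the lists as deposited.

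**Figure D4:**
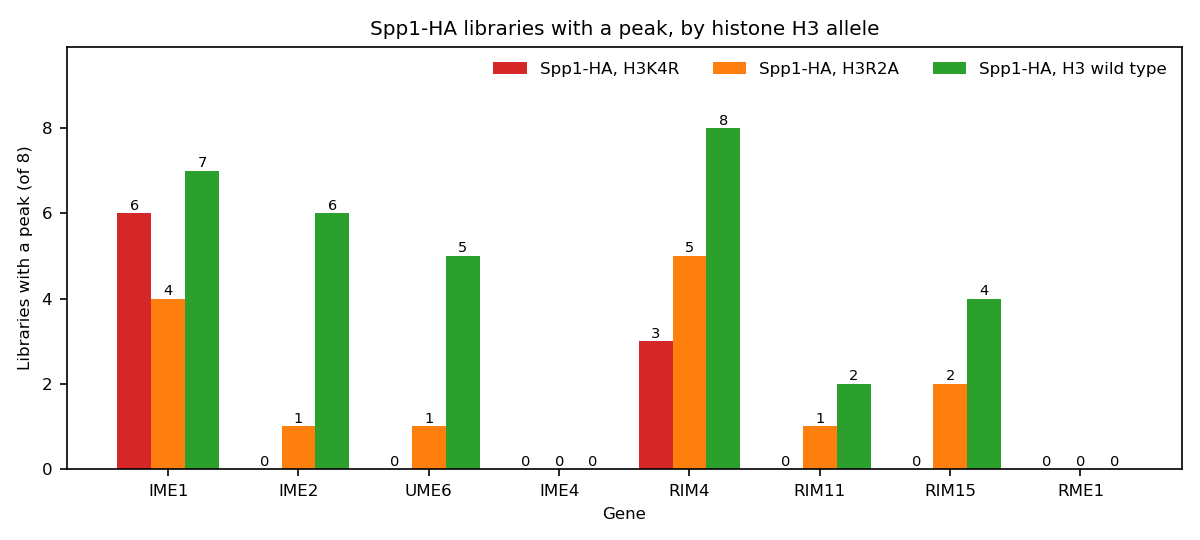
Bars give the number of libraries, of 8 per strain, with a peak at each gene in H3K4R, H3R2A and H3WT. H3K4R has IME1 in 6 libraries and IME2 and UME6 in 0, whereas H3WT has them in 7, 6 and 5.

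RIM15 (YFL033C, chrVI:69115-74427, minus strand, 5313 bp) is the longest of the 8 genes and was occupied in 15 libraries, at places that followed time. In SPS all 4 myc strains had a 151 bp peak upstream, with its midpoint 489 bp upstream in Bre2-myc, 489 bp in PHD-deleted, 438 bp in CXXC-deleted and 493 bp in Spp1-myc. This interval also belongs to HAC1, the gene of a stress-response transcription factor on the other strand, whose start lies 751 bp away, so the peaks cannot be given to 1 of the 2 genes. At 0 h a peak lay 222 to 411 bp into RIM15 in CXXC-deleted and Spp1-myc, in H3WT replicate 1 and in H3R2A replicate 2. At 6 h a peak lay at 4835 to 5161 bp, near the end of the gene, in PHD-deleted and Spp1-myc, in H3R2A replicate 1 and in both H3WT libraries. At 4 h no library had a RIM15 peak, and at 2 h 1 library had, H3WT replicate 2, again upstream.

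In Spp1-myc and in H3WT replicate 1, RIM15 had a peak at its start at 0 h and, at 6 h, one in its last 20% instead. Among genes of 1000 bp or more with a peak at the start and none in the last 20% at 0 h, 5.56% did so in Spp1-myc and 7.62% in H3WT replicate 1, so RIM15 was 1 of many. The share varied between strains and replicates. It was 0% in Bre2-myc, 1.06% in PHD-deleted and 0.62% in CXXC-deleted Spp1-myc, 0.526% and 0.589% in the H3K4R replicates, 4.77% and 0.266% in the H3R2A replicates, and 8.79% in H3WT replicate 2. RIM15 had no peak in H3K4R. Over 2 to 6 h RIM15 was occupied in 2 of 12 myc-strain libraries, against 6 of 8 in SPS and at 0 h (Fisher's exact test, adjusted p = 0.124).

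An upstream peak in SPS that was absent at 0 h was common to IME1, RIM4 and RIM15, which was noticed after their values were seen. All 3 had a peak within 1200 bp upstream and outside coding regions in SPS in the 4 myc strains, no coding peak in SPS and no upstream peak at 0 h. The first of these held for 385 of 6002 genes (6.41%) and all of them for 194 (3.23%). IME1 and RIM4 also had a coding peak at 4 h in all 4 strains, as did 20 genes in all (0.333%). In SPS between 21.7% and 56% of nuclear peaks lay outside coding regions in these strains, against 3.23% to 5.47% at 0 h.

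RIM11 (YMR139W, chrXIII:546125-547237, plus strand, 1113 bp) was occupied in 6 libraries, all in SPS or early in SPM, by narrow peaks of 101 to 151 bp located 78 to 175 bp into the gene. They were Spp1-myc in SPS and at 0 h, CXXC-deleted Spp1-myc at 0 h, H3R2A replicate 1 at 0 h, and H3WT replicate 1 at 0 h and 2 h. Their score percentiles ran from 0.4 to 29.9, so all of them were in the lower part of their lists. No peak was called at RIM11 in any library from 4 h on. Among 12 myc-strain libraries at 2 to 6 h 0 had a peak, against 3 of 8 in SPS and at 0 h (Fisher's exact test, adjusted p = 0.215).

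IME4 (YGL192W, chrVII:142246-144048, plus strand, 1803 bp) and RME1 (YGR044C, chrVII:582990-583892, minus strand, 903 bp) were the regulators with almost no peaks. At least 1 peak in the 62 libraries was found for 67.7% of all genes. COX13, the gene downstream of IME4 and a subunit of cytochrome c oxidase, was occupied in 43 libraries, while YGL193C, a divergent gene whose coding start lies 18 bp from that of IME4, had 0. The single RME1 peak was in CXXC-deleted Spp1-myc at 6 h. It was 101 bp wide, 464 bp upstream, within YGR045C, and stood at score percentile 1 of its list.

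In the competition series the regulators differed in how long their peaks were called after 4.5 h. Spp1-GFP had RIM4 in 7 of 8 libraries, a count that 34 genes (0.566%) reached. Its peaks covered 76.6% and 87.3% of the coding region at 4.5 h, 32.8% and 26.8% at 5 h, 28.1% and 16.4% at 5.5 h, 4.72% in the library at 6 h and no peak at 6.5 h. IME2 was occupied in 6 of 8 libraries: both at 4.5 h, both at 5 h, replicate 1 at 5.5 h and the library at 6 h. IME1 and UME6 were occupied only in the 2 libraries at 4.5 h. Those lists held 530 and 705 peaks, against 129 to 260 in the later ones, so fewer peaks of any kind were called later.

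In the Spp1-myc libraries of the same series RIM4 was occupied in 5 of 10. Coverage was 37.4% and 21.1% at 4.5 h, and it was 23.4% at 5 h, 9.43% at 5.5 h and 11.8% at 6 h in replicate 1, with no peak in replicate 2 at these times or in either at 6.5 h. At least 5 of 10 was reached by 30 genes (0.5%). RIM15 had 1 peak, in replicate 1 at 4.5 h, which lay 4861 bp into the gene, near its end. IME1, IME2, UME6 and RIM11 had 0 of 10.

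At the times with 2 libraries of both, IME2 was at 5 of 6 in Spp1-GFP against 0 of 6 in Spp1-myc (exact Fisher p = 0.0152, adjusted p = 0.455, with 3.33% of 870 genes at least as far). RIM4 was at 6 of 6 against 4 of 6 (adjusted p by Fisher's exact test = 0.86). IME1 and UME6 were each at 2 of 6 against 0 of 6 (adjusted p by Fisher's exact test = 0.86). No gene was called (0% of 870) by Fisher's exact test or by exact permutation within time, with 29 at an unadjusted p under 0.05 by each. The p of the exact permutation cannot go below 0.00926 at these times, so its lack of calls adds little. The median difference was 33.3 percentage points over the 5 regulators with a peak and also over all genes, and the lists held 155 to 705 peaks for Spp1-GFP against 96 to 166 for Spp1-myc.

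The H3 strains gave a second view of time, with 18 libraries at 2 to 6 h against 6 at 0 h. Of 3501 genes tested, 24 were called higher at 2 to 6 h (0.686%) and 235 lower (6.71%) by Fisher's exact test, 7.4% together, and none of the 8 regulators was among them. IME2 was at 7 of 18 against 0 of 6, UME6 at 6 of 18 against 0 of 6 and RIM4 at 13 of 18 against 3 of 6, all higher after 0 h but short of the threshold (Fisher's exact test, adjusted p of 0.442, 0.571 and 0.684). RIM11 was at 1 of 18 against 2 of 6 and RIM15 at 4 of 18 against 2 of 6 (adjusted p by Fisher's exact test of 0.442 and 0.943). Lists had a median of 1046 peaks at 2 to 6 h and 1530 at 0 h, and with lists of equal size the differences of IME1 and RIM15 turned to 27.8 and 16.7 points higher at 2 to 6 h.

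**Figure D5:**
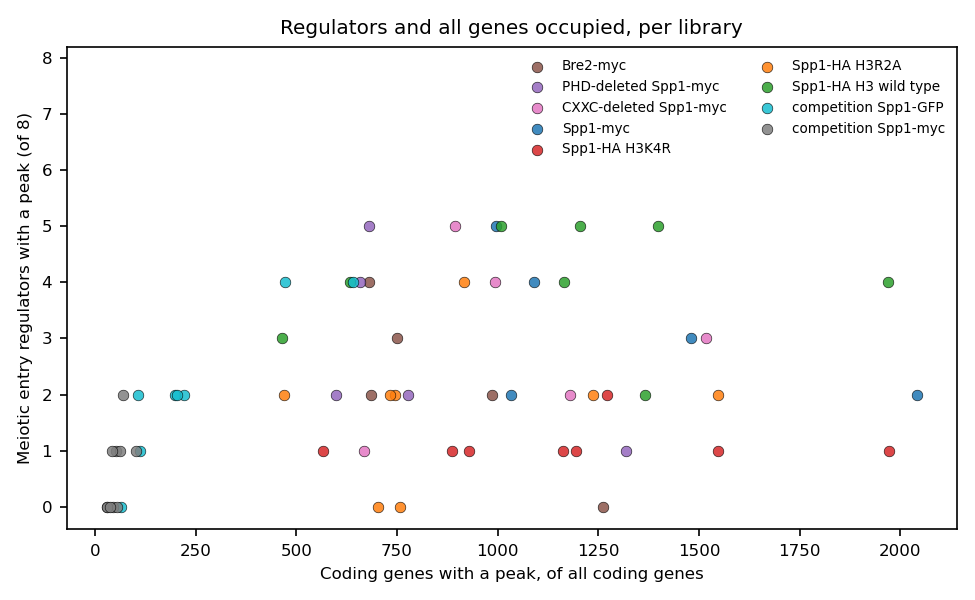
Each point is a library, with the number of all coding genes occupied on the horizontal axis and the number of the 8 regulators occupied on the vertical axis; colours mark strains. H3WT libraries reach 2 to 5 regulators and H3K4R libraries 1 or 2 over a like range of genes occupied, and no library has more than 5.

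A library with more genes occupied did not always have more of the regulators. The largest list, Spp1-myc at 0 h, covered 34% of all genes and 2 of the 8 regulators, whereas Spp1-myc at 6 h covered 16.6% of all genes and 5 regulators. In H3K4R every library had 1 regulator except replicate 2 at 6 h, which had 2. H3WT libraries had between 2 and 5.

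Of 179 peaks with midpoints in the coding regions of the 8 genes, 104 (58.1%) lay in the first 20% of the gene, 47 (26.3%) in the middle 60% and 28 (15.6%) in the last 20%, and RIM4 gave 33 of those in the middle. Over all genes the shares were 26.8%, 65.3% and 7.9% of 47594. Most of the 104 are the same few positions called again in other libraries, 32 of them at RIM4, 27 at IME1 and 19 at IME2, so these shares are a description and were not tested.

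Other genes of the pathway were called mainly for fewer peaks after 0 h. Of 38 genes, listed by role from general knowledge with earlier results of these data known, 27 had a peak in the H3 strains and were tested with time. By Fisher's exact test 5 were called lower at 2 to 6 h than at 0 h and 0 higher, where 6.71% of all genes tested were called lower and 0.686% higher. They were MRK1 (2 of 18 against 6 of 6, adjusted p = 0.00998, Fisher's exact test) and MCK1 (2 of 18 against 5 of 6), kinases of the Rim11 family, SIN3 (4 of 18 against 6 of 6), a corepressor that Ume6 recruits, and IGO2 (4 of 18 against 6 of 6) and GIS1 (0 of 18 against 4 of 6), which act below Rim15. All 5 calls were lost without H3K4R, without H3R2A, without either replicate and with lists of equal size (for MRK1, adjusted p of 0.112, 0.181, 0.259 to 0.465 and 0.573, Fisher's exact test). MRK1 was also called lower at 2 to 6 h in the myc strains, at 2 of 12 against 8 of 8 in SPS and at 0 h (Fisher's exact test, adjusted p = 0.0245), the only one of the 38 called there. This call was lost with strain as a stratum (exact permutation, adjusted p = 0.0541), without any 1 strain (adjusted p between 0.057 and 0.174, Fisher's exact test) and with lists of equal size (Fisher's exact test, adjusted p = 0.0671). The median difference with time was -33.3 points over the 27 with a peak in the H3 strains, against -16.7 over all genes. In the myc strains it was -12.5 over the 25 with a peak, the value over all genes. In the histone comparisons 0 of the 38 were called by Fisher's exact test.

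Within these branches the gene-by-gene patterns differed. SLZ1, the partner of Ime4, was occupied in 29 libraries although IME4 was in none, and stood at 0 of 8 in H3K4R, 4 of 8 in H3R2A and 7 of 8 in H3WT (H3K4R against H3WT, Fisher's exact test, adjusted p = 0.225). RIM8, of the Rim101 branch that senses external pH, went the other way, with 8 of 8 in H3K4R, 5 of 8 in H3R2A and 0 of 8 in H3WT (H3K4R against H3WT, Fisher's exact test, adjusted p = 0.225). The corepressor gene CYC8 was occupied in 45 libraries, RIM101 in 33, and BCY1 and RAS2 of the protein kinase A branch in 30 each. NDT80, the activator of the middle meiotic genes, had a peak in 3 H3WT and 4 Spp1-GFP libraries and in no other. RIM13, RIM20, ISW2, YGK3, TPK3, SOK2 and MDS3 had none.

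The 25 early genes counted as targets of Ime1 and Ume6, listed in the same way and so no independent evidence of a direction, gave 0 calls in any of the 5 comparisons (Fisher's exact test). Of the 23 with a peak in the histone comparisons, all 23 were occupied in fewer H3K4R than H3WT libraries, and all 23 in fewer H3R2A than H3WT libraries, with median differences of -37.5 points in both. Over all genes 1439 were in more H3K4R than H3WT libraries and 1380 in fewer, and for H3R2A 825 were in more and 1805 in fewer. No H3K4R library had a peak at any of the 25. Each of the 23 thus entered that comparison through H3WT and could only be lower in H3K4R. That count of direction is therefore no result beside the split over all genes. Of the H3WT libraries, replicate 2 at 2 h alone held 23 of the 25, against 1 to 15 in the others at 2 to 6 h, and 5 of the genes had a peak in no other H3WT library. Without that library, a choice made after the values were seen, 18 genes had a peak, and all 18 were again in fewer libraries of either mutant (median differences -42.9 and -30.4 points). For H3K4R this direction was again the only one possible. Targets such as SPO13, REC8, REC104, SAE3 and RED1 had no H3R2A peak and could likewise only be lower in H3R2A. Among H3R2A libraries, replicate 1 at 4 h held 12 of the 25, replicate 2 at 6 h held 1, and others none. The counts of direction for H3R2A are thus fixed in part and rest mostly on 1 H3R2A library. No library in SPS or at 0 h had a peak at any of the 25, so a target with a peak could only be higher later. Both counts of direction with time are fixed in this way. After 0 h 23 of 23 were occupied more often in the H3 strains (median difference 22.2 points), against 1192 of all genes more often and 2161 less often. Of the targets, 19 of the 19 with a peak in the myc strains were occupied more often at 2 to 6 h than in SPS and at 0 h (median difference 25 points), against 1203 of all genes more often and 1970 less often.

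The genes most like IME1 over the 62 libraries were the proteasome gene RPT1 (Jaccard index 0.846), FOX2 (0.829), an enzyme of fatty acid breakdown, and the Hsp90 co-chaperone gene SBA1 (0.825). Those most like RIM4 were the aconitase gene ACO1 (0.741), the ubiquitin gene UBI4 (0.729) and the arginase gene CAR1 (0.727). For RIM11 they were HIP1, BCH1 and THP3, each with 0.833 over 6 libraries, and for RIM15 no gene passed 0.476 (QDR2).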

How the data were processed

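Chromatin immunoprecipitation was sequenced in 64 samples, of which 62 had a peak list. Per the submitters' processing notes, reads were handled with BWA and deepTools on sacCer3; which peak caller, threshold and control were used is not given in the sources used here. A list per sample was deposited by the authors with positions, widths and scores; the deposited score is a fraction (0.5 to 1), with no normalization stated per the labels. The other deposited value, the width in bp, equals the span of the peak except for 78 peaks cut at a sequence end. The lists hold no counts, so depth is unknown.

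Samples were grouped by strain, medium and time from the labels (42 groups, 20 with 2 replicates). Where descriptions in the labels call Spp1 of the H3 strains myc-tagged, the genotype and antibody (HA) were followed. Gene positions came from R64, and the strand from the systematic name. Presence of a peak was tested per gene with Fisher's exact test, two-sided, adjusted by Benjamini-Hochberg over genes with a peak in the comparison (threshold 0.05), and as an alternative by exact permutation within time or strain (Python 3.11.15, SciPy 1.17.1, statsmodels 0.14.6, pandas 2.3.3). Fisher's test was tested on simulated data and the permutation test checked on a case with a known p. Peaks under 1000 bp were joined into positions when midpoints lay within 200 bp, a choice made after the values were seen. Named genes were the 8 regulators, the listed pathway genes where occupied, neighbours sharing a peak and the 3 genes of highest Jaccard index for regulators occupied in at least 5 libraries, leaving out genes within 5000 bp. The regulators and lists were chosen with earlier results of these data known. Replicate numbers were not treated as pairs. Peaks on a sequence named chrXVII could not be assigned to genes. Alternatives changed the upstream window, the assignment, the score, list length, and the libraries and strains included.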

Additional observations from a re-analysis of the deposited data

How the results depend on the processing

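Of 391 values of single regulators under alternatives, 371 did not reverse in direction and kept their side of the threshold. A difference that fell to 0, or a regulator left without a peak, counts among the 371, as for RIM11 in the histone comparisons with lists of equal size. The number of genes called for H3K4R against H3WT stayed at 0 except without H3WT replicate 1 at 0 h (12, none of them a regulator). Leaving out a replicate gave 0 to 0 for H3K4R, H3R2A and the competition series. Later against 0 h in the H3 strains fell to 160 calls with higher-scoring peaks alone, 98 with lists of equal size, 0 without H3K4R or without H3R2A, 55 without H3WT, 77 without H3WT replicate 1 at 0 h, and 0 to 0 without a replicate (259 with all lists as deposited). The myc-strain comparison (120) gave 48 with higher-scoring peaks, 57 by exact permutation within strain, 34 without Bre2-myc, 37 without PHD-deleted, 33 without CXXC-deleted and 38 without Spp1-myc, 41 for 4 and 6 h, and 448 without SPS. The occupied combinations (134) became 157 with a 1000 bp window, 210 with 2500 bp and 97 with higher-scoring peaks. Differences that reversed were IME1 in H3K4R with a replicate left out (-37.5 to 12.5 points), RIM11 in H3R2A likewise (-37.5 to 12.5), and, with time in the H3 strains, UME6 at 1000 bp (-5.56), IME1 and RIM15 with higher-scoring peaks (5.56 and 11.1) or equal lists (27.8 and 16.7), and RIM15 without H3WT replicate 1 at 0 h (2.22). RIM11 had 0 libraries and RIM15 6 among higher-scoring peaks. The cause was not tested. Same-numbered replicates were not treated as pairs, and the labels do not say whether they are. Correlations of their differences lay between -0.0423 and 0.21, and for H3R2A against H3WT all were positive (0.0892 to 0.21). The replicate block gave 0 calls in all 3 comparisons. With 1 library of each strain per block its smallest p is too high for a call unless very many genes reach it.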
